A study of Mus musculus with 12 samples.

Results

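The interleukin-7 receptor alpha chain gene Il7r and a set of lymphocyte marker genes were examined in the iris of 4 mouse strains. The list held 6 genes: Il7r, Cd4, Cd3e, Cd3g, Cd8a and Il2rg. All probe sets that the platform annotation assigns to these genes were taken, with no filter on expression, which gave 11 probe sets for 5 genes out of 45037 probe sets and 18193 named genes in all. Il2rg, the common gamma chain with which Il7r pairs, is named only and was not analysed here. The comparison asked whether Il7r and Cd4 moved together with markers of T and B cells.

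Il7r encodes the chain that binds interleukin-7. With the common gamma chain it forms the interleukin-7 receptor, and with Crlf2 it forms the receptor for thymic stromal lymphopoietin (Tslp), and both signal through Janus kinases to STAT5. Most naive T cells and early lymphoid precursors carry the interleukin-7 receptor, and myeloid cells can also express it. Cd3e and Cd3g encode subunits of the T cell receptor complex, so T cells of every class carry them. Cd8a encodes the coreceptor of cytotoxic T cells and is also found on some dendritic cells. Cd4 encodes the coreceptor of helper T cells and is also found on some macrophages and dendritic cells.

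Each strain had 3 samples, and each sample was total RNA from the 4 irides of 2 mice aged 60 days, hybridised to 1 Affymetrix mouse array. C57BL/6J was the unmutated strain. B6-Lyst mice (B6-Lystbg-J) carry a mutation in Lyst, a regulator of lysosome-related organelles. The B6-albino strain, B6-(Cg)TyrC-2J, has its mutation in the tyrosinase gene Tyr, whose enzyme starts the making of melanin. The B6-D2 congenic strain, named B6.D2(Tryp1-Gpnmb-)/SJ in the labels, is mutant at both Tyrp1 and Gpnmb, which encode melanosomal proteins. Values are the deposited log2 probe set values, and a probe set was called when its adjusted p was below 0.05 in a limma fit over all 12 arrays, with Benjamini-Hochberg adjustment over all 45037 probe sets. For lists of genes, the probe set with the highest mean over the 12 arrays stood for its gene.

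Array medians lay between 6.05 and 6.14 on the log2 scale, and arrays of 1 strain correlated at 0.973 to 0.992 over probe sets. Gpnmb (1448303_at) read 9.06 to 9.53 in B6-D2 congenic arrays and 11.95 to 13.19 in the other 9. The means of 10 iris genes, such as Pmel, Dct and Acta2, lay between 10.84 and 11.93 in every array. The poly-A control spikes averaged 6.86 to 7.604 on the C57BL/6J arrays and 4.87 to 5.71 on the arrays of the mutant strains, so spike level and strain cannot be told apart in any comparison with C57BL/6J. The comparisons among the mutant strains lie within the low spike range. The hybridisation spikes averaged 9.32 to 9.45 on the B6-Lyst arrays and 9.64 to 10.15 on the others, and their part in the B6-Lyst results was not tested. The corneal keratin Krt12 (1419231_s_at) was high on 3 arrays, at 12.86 in C57BL/6J replicate 1, 10.45 in B6-albino replicate 1 and 13.81 in B6-D2 congenic replicate 2, against 5.96 to 7.12 on the other 9. C57BL/6J replicate 3 had the widest gap between the actin 3 prime and 5 prime control probe sets, 4.30, against 1.84 to 2.72 on the other 11 arrays.

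The 250 bases before the annotated start of Il7r and of Cd3e are shown because both hold the ETS core letters GGAAGT while the genes differed in outcome. They are RefSeq sequence of GRCm38.p6, on the gene's strand from 5′ to 3′, with matches in capitals; the entries cover 5 of the 6 genes, and Cd4 is named only. Il7r lies on chromosome 15 (chr15:9529877-9530126, minus strand) and Cd3e on chromosome 9 (chr9:45009612-45009861, minus strand).
Il7r: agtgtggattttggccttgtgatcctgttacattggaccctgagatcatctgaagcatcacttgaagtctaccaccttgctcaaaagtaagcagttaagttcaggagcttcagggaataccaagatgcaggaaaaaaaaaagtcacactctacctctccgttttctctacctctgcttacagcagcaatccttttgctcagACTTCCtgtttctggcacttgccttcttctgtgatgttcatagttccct
Cd3e: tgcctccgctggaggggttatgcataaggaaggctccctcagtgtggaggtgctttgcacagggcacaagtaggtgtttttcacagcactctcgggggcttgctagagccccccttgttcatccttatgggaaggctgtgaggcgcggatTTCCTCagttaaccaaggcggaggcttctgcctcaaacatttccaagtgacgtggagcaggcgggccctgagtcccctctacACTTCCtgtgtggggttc
Capitals mark GGAAGT, an ETS family core, or GAGGAA, a PU.1-like core, searched on both strands; here every match lay on the opposite strand and so reads ACTTCC or TTCCTC. The ETS letters began 49 bases before the start of Il7r and 18 bases before that of Cd3e. GGAAGT was present in 19.7% of 32851 promoters of that length and GAGGAA in 23.3%. Cd3e also held the PU.1-like letters, 100 bases before its start, and Cd8a held them 130 bases before. Neither pattern was found in the windows of Cd3g or Il2rg. A match describes letters in this window only.

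Il7r was among the most raised transcripts of the B6-Lyst iris. Its brighter probe set, 1448575_at, read 4.77, 5.02 and 4.84 in the C57BL/6J arrays. In B6-Lyst it read 9.72, 10.28 and 9.53. In B6-albino the 3 values were 4.93, 4.81 and 4.89, and in B6-D2 congenic mice 4.95, 5.05 and 5.17. Every B6-Lyst array stood more than 4 log2 units above every array of the other strains, and those 9 arrays lay close to each other. B6-Lyst exceeded C57BL/6J by 4.97 on the log2 scale (SE 0.16, 95% interval 4.61 to 5.32, adjusted p = 5.96e-09, limma, n = 3 per strain). It exceeded B6-albino by 4.97 (adjusted p = 4.79e-09) and B6-D2 congenic mice by 4.78 (adjusted p = 8.13e-09). By size of the rise over C57BL/6J, Il7r stood in place 5 among the 45037 probe sets.

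In order of level, B6-Lyst came first with a mean of 9.84 ± 0.39 (SD, n = 3), followed by B6-D2 congenic mice with 5.06 ± 0.11, then B6-albino with 4.87 ± 0.06 and C57BL/6J with 4.87 ± 0.13. No pair of the last 3 strains differed past the threshold. The B6-albino arrays all lay below the B6-D2 congenic arrays, but their difference of -0.18 was not called (adjusted p = 0.802, limma). B6-D2 congenic mice differed from C57BL/6J by 0.18 (95% interval -0.17 to 0.54, adjusted p = 0.639, limma), and B6-albino by 0.00 (-0.35 to 0.36, adjusted p = 0.996). No detection calls came with the values, and these 3 strain means lie below 5.65, the 40th percentile of probe set means. Against that value in place of the measured low means, 1448575_at was at least 18.2-fold higher in B6-Lyst. Its measured difference from C57BL/6J corresponds to 31.3-fold. On the second Il7r probe set, 1448576_at, the same bound was 1.42-fold and the measured difference from C57BL/6J 4.58-fold.

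The second Il7r probe set, 1448576_at, was dimmer and showed the same ordering of B6-Lyst over the rest. It read 4.02, 3.94 and 3.94 in C57BL/6J and 5.78, 6.39 and 6.31 in B6-Lyst. In B6-albino it read 3.995, 3.76 and 3.77, and in B6-D2 congenic mice 3.87, 4.14 and 3.85. Its arrays did not overlap either, with a difference of 2.19 from C57BL/6J (SE 0.14), 2.32 from B6-albino and 2.20 from B6-D2 congenic mice, and it was called in all 3 comparisons. The probe sets thus differed in the size of the change, 4.97 against 2.19, and matched in its direction.

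Cd4 rose by much less. Its probe set 1419696_at read 6.46, 6.65 and 6.74 in C57BL/6J and 7.34, 7.62 and 7.19 in B6-Lyst. The values were 6.41, 6.46 and 6.49 in B6-albino and 6.61, 6.46 and 6.45 in B6-D2 congenic mice. The B6-Lyst arrays lay above all the others, and the other strains overlapped. The difference was 0.77 from C57BL/6J (SE 0.13, adjusted p = 0.00825, limma, n = 3 per strain), 0.93 from B6-albino (adjusted p = 0.00179) and 0.88 from B6-D2 congenic mice (adjusted p = 0.00341), or 1.71-fold, 1.91-fold and 1.84-fold. By mean level B6-Lyst (7.38 ± 0.22) was followed by C57BL/6J (6.61 ± 0.14), B6-D2 congenic mice (6.51 ± 0.09) and B6-albino (6.45 ± 0.04), and no neighbours among the last 3 differed past the threshold.

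The second Cd4 probe set did not follow the first. 1427779_a_at read 5.69, 5.99 and 6.14 in C57BL/6J and 5.99, 6.08 and 5.81 in B6-Lyst, and its values overlapped in all strains. The difference was 0.02 (95% interval -0.30 to 0.34, adjusted p = 0.965). The Cd4 call against C57BL/6J therefore rests on 1 of 2 probe sets. It was also lost, at 0.69 (adjusted p = 0.0697), without the 3 arrays with high Krt12, and at an unaltered 0.77 (adjusted p = 0.0793) when only the arrays of the strains compared were fitted. The call against B6-D2 congenic mice was lost without the high Krt12 arrays (adjusted p = 0.0509).

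**Figure D1:**
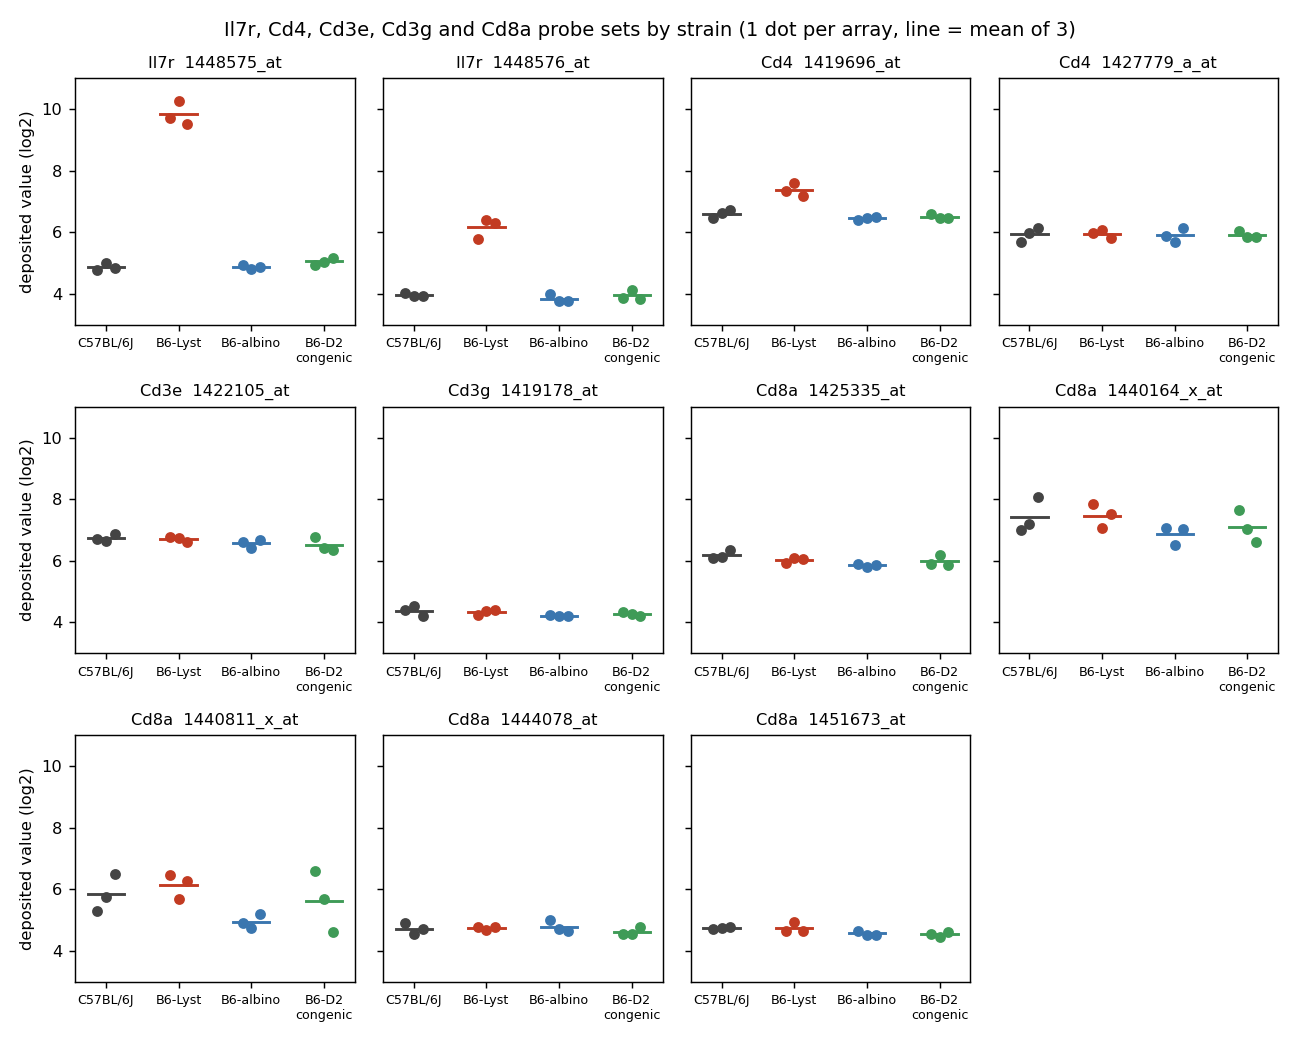
Deposited log2 values (vertical axis) of the 11 probe sets of Il7r, Cd4, Cd3e, Cd3g and Cd8a by strain (horizontal axis); each dot is 1 array and each line the mean of 3. Both Il7r probe sets and 1 of 2 Cd4 probe sets stand higher in B6-Lyst, and the Cd3e, Cd3g and Cd8a panels show overlapping strains or shifts that were not called.

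The T cell receptor subunits showed no such rise. Cd3e (1422105_at) read 6.72, 6.65 and 6.88 in C57BL/6J and 6.79, 6.75 and 6.62 in B6-Lyst. In B6-albino it read 6.62, 6.43 and 6.67, and in B6-D2 congenic mice 6.78, 6.42 and 6.34. The strains overlapped. The difference between B6-Lyst and C57BL/6J was -0.03 (95% interval -0.32 to 0.26, adjusted p = 0.941, limma), so a rise in Cd3e above 0.26 lay outside the interval.

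Cd3g (1419178_at) was dim, at percentile 7.67 of probe set means. It read 4.41, 4.535 and 4.22 in C57BL/6J and 4.23, 4.365 and 4.403 in B6-Lyst. The B6-albino values were 4.25, 4.196 and 4.2, and the B6-D2 congenic values 4.35, 4.27 and 4.21. The difference between B6-Lyst and C57BL/6J was -0.06 (95% interval -0.23 to 0.12, adjusted p = 0.81), within the spread of the arrays.

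Cd8a had 5 probe sets, none of them called in any of the 6 strain comparisons. The brightest, 1440164_x_at, read 7.003, 7.18 and 8.08 in C57BL/6J, 7.83, 7.07 and 7.52 in B6-Lyst, 7.08, 6.53 and 7.04 in B6-albino, and 7.67, 7.02 and 6.63 in B6-D2 congenic mice. All strains overlapped, and the highest value was that of C57BL/6J replicate 3, the array with the widest actin gap. The difference between B6-Lyst and C57BL/6J was 0.05 (95% interval -0.65 to 0.75, adjusted p = 0.964), an interval too wide to place Cd8a on this probe set beside Cd3e. Without C57BL/6J replicate 3 it was 0.38 (adjusted p = 0.63), and with the actin gap as covariate 0.31 (adjusted p = 0.609). The suffix _x_at marks probes that may also match other transcripts. The other probe sets differed by -0.17 (1425335_at), 0.30 (1440811_x_at), 0.02 (1444078_at) and 0.01 (1451673_at), with adjusted p from 0.546 to 0.98.

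In all, 3 of the 11 probe sets were called in B6-Lyst against C57BL/6J, all higher, where 1.58% of all probe sets were called. Against B6-albino 3 of 11 were called (1.29% of all probe sets), and against B6-D2 congenic mice 3 of 11 (0.795%), in each case both Il7r probe sets and Cd4 1419696_at. These comparisons share the B6-Lyst arrays. Arrays did not overlap for 4 of 11 probe sets against C57BL/6J, where 20.2% of all probe sets did not. The median difference of the 11 was 0.02, and that of all probe sets -0.01.

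The 11 probe sets gave no call between strains without the Lyst mutation. B6-albino against C57BL/6J gave 0 calls among the 11 by limma, with 1 at an unadjusted p below 0.05, where 0.184% of all probe sets were called. The differences ran from -0.90 (Cd8a 1440811_x_at, adjusted p = 0.297) to 0.06. B6-D2 congenic mice against C57BL/6J also gave 0 calls, with 1 at an unadjusted p below 0.05 (0.04% of all probe sets called), and differences from -0.32 to 0.18. No gene of any list was called in either comparison, where 0.198% and 0.022% of genes were. B6-albino against B6-D2 congenic mice gave 0 calls and 0 at an unadjusted p below 0.05 (0.06% called).

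To describe whether Il7r moved with the lymphocyte markers, another gene's log2 value was subtracted from that of Il7r within each array. The subtraction removes any shift the whole array shares. This signed gap, Il7r minus Cd3e, averaged -1.68 in the other 9 arrays and 3.12 in B6-Lyst. The gap sets values of different probe sets against each other, so only its change is read here. The rise was 4.80 (exact permutation test, two-sided, p = 0.00455, adjusted p = 0.01 over 22 such tests). That p is the smallest the 220 splits allow. The signed gap rose by 4.87 for Cd3g, 4.57 for Cd8a and 4.98 for the B cell receptor chain gene Cd79a, each with the same exact p. Il7r was chosen with earlier results of these data known, and its B6-Lyst values lay far above all others. A gene that barely differed between strains therefore had to give this smallest p, which adds no support beyond the Il7r rise itself. The 220 splits also treat the 9 arrays of different strains as alike. Il7r thus changed by another amount than each of these lymphocyte genes. Ptprc encodes CD45 and is carried by nearly all leukocytes. Il7r minus Ptprc rose by 2.28, from a mean of -1.92 to 0.36, and Il7r minus Cd4 by 4.05, again with p = 0.00455 in the exact test. None of these gaps was computed on the dimmer Il7r probe set, 1448576_at. That probe set rose by 2.19 over C57BL/6J, less than the brighter Ptprc probe set did, so the sizes and the Ptprc direction depend on the probe set.

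The same test was run for Cd4 on its called probe set, 1419696_at. There Cd4 gained 0.76 on Cd3e, 0.82 on Cd3g and 0.94 on Cd79a (each exact permutation p = 0.00455, adjusted p = 0.01), while its gain of 0.52 on Cd8a had an exact p of 0.1. It fell by 1.76 relative to Ptprc (exact p = 0.00455). These gaps were not computed on 1427779_a_at, the Cd4 probe set that differed by 0.02 from C57BL/6J. The second Ptprc probe set, 1440165_at, was dimmer and differed between B6-Lyst and C57BL/6J by 0.32 (adjusted p = 0.138). With C57BL/6J alone as the comparison, the exact permutation test of 3 arrays against 3 cannot go below p = 0.1, and all gaps gave that value. Cd4, too, was chosen as a member with earlier results of these data known, so its exact p-values are descriptive. Cd79a and Cd4 were added as comparison genes after the data were seen.

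**Figure D2:**
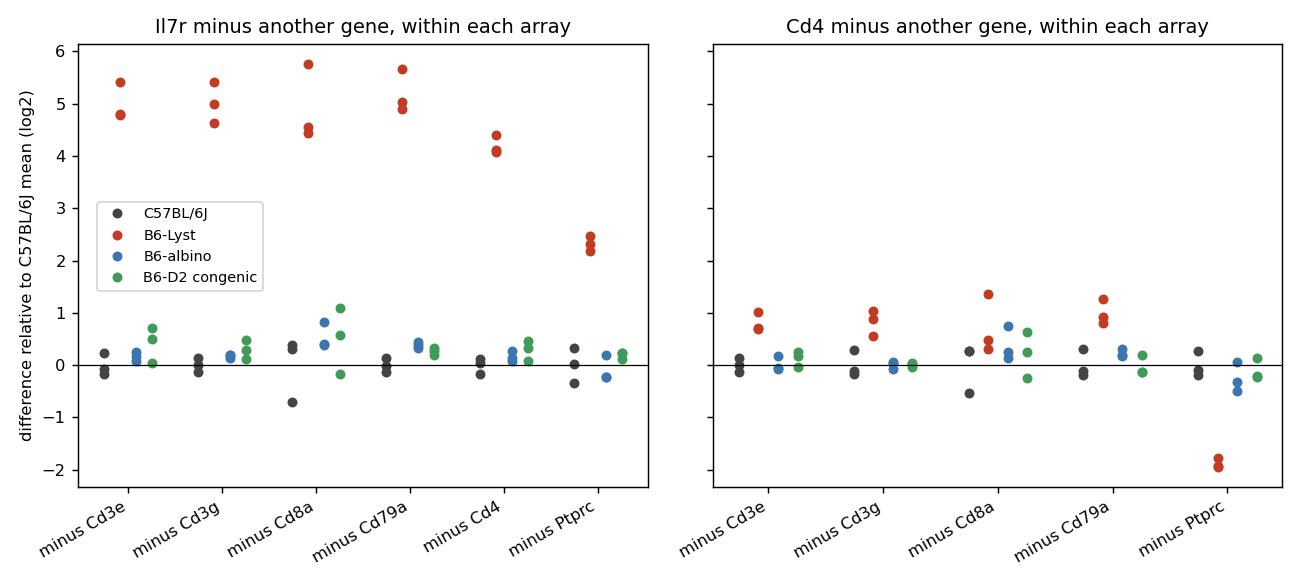
Within-array log2 value of Il7r (left) or Cd4 (right) minus that of another gene, less the C57BL/6J mean of that signed gap. Each dot is 1 array, coloured by strain. The B6-Lyst arrays lie 4 or more above zero for Il7r against Cd3e, Cd3g, Cd8a, Cd79a and Cd4, above 2 against Ptprc, and for Cd4 they lie below zero only against Ptprc.

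Markers of lymphocytes as a group showed 3 isolated rises. In B6-Lyst against C57BL/6J, 2 of 21 T cell genes with a probe set were called higher and 0 lower, where 1.44% of 18193 genes were called higher and 0.517% lower. They were Cd4 and Cd28, the costimulatory receptor. Cd28 rose by 0.50 (SE 0.10, adjusted p = 0.034), from 4.27 to 4.52 in C57BL/6J to 4.66 to 5.002 in B6-Lyst, at percentile 9.91 of probe set means. Its second probe set, 1417597_at, rose by 0.68 (adjusted p = 0.0088). The Cd28 call on the brighter probe set held in 8 of 12 fits that left out 1 array and was lost in 4, those leaving out replicate 1 of either strain (adjusted p = 0.0739 and 0.162), the third C57BL/6J array (0.122) or B6-Lyst replicate 2 (0.102). It was also lost in limma without the intensity trend (adjusted p = 0.0525), with only the arrays compared (0.113) and with the actin gap as covariate (0.0636). Without C57BL/6J replicate 3 the T cell list had 1 call. Without the 3 arrays with high Krt12 it had 0, with adjusted p in limma of 0.0697 for Cd4 and 0.102 for Cd28. The median over the 21 genes was 0.01, against 0.00 over all genes. Cd4 and Cd28 were also the 2 T cell genes called against B6-albino, where 1.61% of all genes were called higher, and against B6-D2 congenic mice, where 1.17% were. The Cd28 call against B6-D2 congenic mice was lost in 5 of 12 fits that left out 1 array, and without the high Krt12 arrays the T cell list had 0 calls in that comparison, with adjusted p in limma of 0.0509 for Cd4 and 0.0908 for Cd28. That Cd28 call was also lost in limma without the intensity trend (adjusted p = 0.0681) and with only the arrays compared (0.0937). Against B6-albino the median of the 21 genes was 0.12, with 18 above 0, where all genes had a median of -0.01. Against B6-D2 congenic mice it was 0.06, with 17 above 0 and a median of -0.05 over all genes.

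The remaining defining T cell markers were not called. Cd3d, the third CD3 chain, differed by 0.05 (adjusted p = 0.863) and Cd2, an adhesion receptor, by 0.05 (adjusted p = 0.86). Of the 21 genes, 13 had mean values below the 40th percentile.

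Of 14 B cell genes with a probe set, 1 was called higher and 0 lower, where 1.44% and 0.517% of all genes were. It was Cd22, an inhibitory sialic acid binding receptor. Cd22 (1419768_at) read 6.52, 6.65 and 6.70 in C57BL/6J and 8.78, 8.73 and 8.12 in B6-Lyst. The arrays did not overlap, and the rise was 1.92 (SE 0.17, adjusted p = 3.54e-05). Its dimmer probe set 1419769_at differed by 0.42 (adjusted p = 0.0784). The genes that define B cells did not accompany it. Cd79a differed by -0.23 (adjusted p = 0.295), and Ms4a1, which encodes CD20, by 0.26 (adjusted p = 0.331). Of the 14 genes, 7 had mean values below the 40th percentile, and Ms4a1 lies at percentile 7.69. The median of the list was 0.09, and 4 genes had an unadjusted p below 0.05.

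Neither cytotoxic nor innate lymphoid markers were called. Of 11 genes of natural killer and cytotoxic cells, limma called 0, with 3 at an unadjusted p below 0.05 (Nkg7 and Tbx21 higher, Prf1 lower) and a median of 0.10. Of 5 genes of innate lymphoid cells it called 0, with 1 (Gata3) at an unadjusted p below 0.05 and a median of 0.11. Over all genes 14.9% had an unadjusted p below 0.05. Of the 11 cytotoxic genes, 9 had mean values below 5.65, the bound used above for Il7r, and of the 5 innate lymphoid genes 2 had. The 0 calls among such dim cytotoxic genes therefore say little about a change in these cells.

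Markers of myeloid cells and of leukocytes in general rose in the same arrays in which Il7r was high. Against C57BL/6J, 1.44% of all genes were called higher and 0.517% lower. Of 19 macrophage and monocyte genes with a probe set, 12 were called higher and 0 lower, with a median of 0.87. The largest rises were in the integrin Itgax (4.05), the lysozyme Lyz2 (3.86), the lysosomal protein Cd68 (3.501), the adaptor Tyrobp (3.00), the Fc receptor chain Fcer1g (2.00) and Adgre1, which encodes F4/80 (1.71). The scavenger receptor Cd163, another macrophage marker, went the other way without being called, by -1.10 (adjusted p = 0.218), -1.38 against B6-albino and -1.22 against B6-D2 congenic mice. Its B6-Lyst arrays, at 5.59, 3.83 and 5.63, all lay below those of the other strains. Of 10 genes shared by leukocytes, 9 were called higher, led by the integrin Itgb2 (4.32), Cd53 (2.98), the actin bundling protein Lcp1 (2.65), Ptprc (2.65), Laptm5 (2.59) and Cd52 (2.29), with a median of 2.44. Without C57BL/6J replicate 3 the macrophage list had 7 calls in place of 12. In whole tissue, a change in the number of cells of a type and a change in RNA per cell cannot be told apart.

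The mean of the macrophage list per array ran from 8.58 to 8.79 in B6-Lyst and from 7.12 to 7.59 over the other 3 strains. The mean of the T cell list ran from 5.68 to 5.74 in B6-Lyst and from 5.43 to 5.71 elsewhere. The mean of the B cell list ran from 5.805 to 5.857 in B6-Lyst, just above its range of 5.53 to 5.801 elsewhere. That mean includes Cd22, which differed from C57BL/6J by 1.92 where the list median was 0.09, and it was not computed without Cd22. The B6-Lyst arrays stood clear of the rest for macrophage genes and overlapped them for T cell genes. The part of myeloid cells in the Il7r and Cd4 values was not tested.

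**Figure D3:**
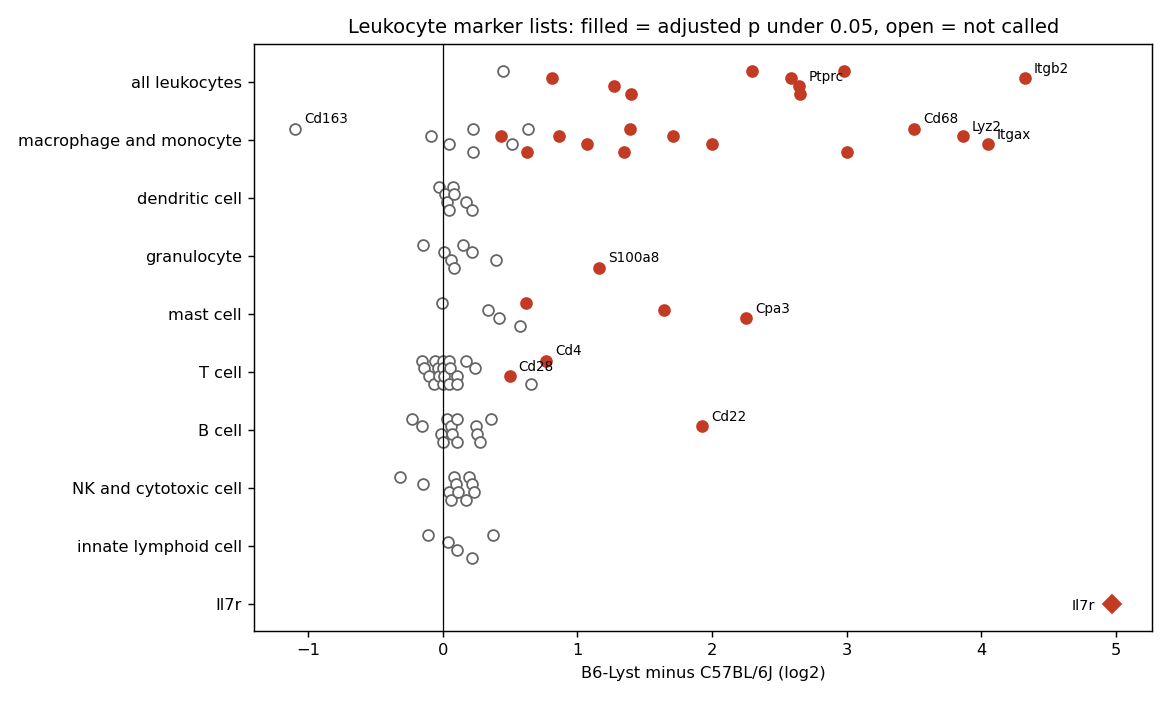
Difference between B6-Lyst and C57BL/6J (horizontal axis, log2) for each gene of 9 leukocyte marker lists (rows) and for Il7r; filled symbols were called, open symbols were not. Calls fill most of the general leukocyte and macrophage rows, while the T cell row has 2, the B cell row has 1 and the cytotoxic and innate lymphoid rows have 0.

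Among the partners of Il7r in the interleukin-7 and Tslp pathway, few moved. Of 16 pathway genes with a probe set, which include Il7r, 2 were called higher and 1 lower in B6-Lyst against C57BL/6J. The 2 were Il7r itself and Crlf2, and the median of the 16 was -0.03. Over all genes 1.44% were called higher and 0.517% lower. The ligand Il7 differed by 0.00 (95% interval -0.15 to 0.16, adjusted p = 0.985). The ligand Tslp fell by 0.37 (SE 0.06, adjusted p = 0.00949), from 4.28 to 4.34 in C57BL/6J to 3.89 to 3.99 in B6-Lyst, at percentile 5.08 of probe set means. Tslp in B6-Lyst was not called against B6-albino (-0.05, adjusted p = 0.74) or B6-D2 congenic mice (-0.24, adjusted p = 0.158), and the call against C57BL/6J was lost without B6-Lyst replicate 3 (adjusted p = 0.0544). Tslp in B6-albino also lay under C57BL/6J on average, short of the threshold (-0.32, adjusted p = 0.0575).

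Crlf2, the receptor chain that joins Il7r to bind Tslp, read 8.72, 8.30 and 8.24 in C57BL/6J and 9.15, 9.26 and 8.89 in B6-Lyst. The arrays did not overlap, and the rise was 0.68 (SE 0.15, adjusted p = 0.0432). The Crlf2 call held in 1 of 12 fits that left out 1 array, the one without C57BL/6J replicate 1, with adjusted p of 0.0105 to 0.179. It rose over B6-albino as well (0.71, adjusted p = 0.0394), a call that held in 4 of 12 such fits and was lost with the replicate block (adjusted p = 0.0608) and without the high Krt12 arrays (0.0986). It was not called against B6-D2 congenic mice (0.55, adjusted p = 0.208).

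The kinases and transcription factors that act below the receptor were not called on their representative probe sets. Jak1 differed by 0.09 (adjusted p = 0.901), Jak3 by -0.04 (adjusted p = 0.943), Stat5a by -0.01 (adjusted p = 0.979) and Stat5b by -0.11 (adjusted p = 0.853). Its targets gave no call against C57BL/6J on those probe sets. The survival gene Bcl2 differed by -0.55 (adjusted p = 0.0829), while 1 of its other 4 probe sets, 1440770_at, was called lower (-0.72, adjusted p = 0.0275). The feedback inhibitors Cish and Socs3 differed by -0.17 (adjusted p = 0.766) and 0.66 (adjusted p = 0.0966). Against B6-albino, 3 of 16 were called, all higher, where 1.61% of genes were called higher: Il7r, Crlf2 and Socs3 (1.14, adjusted p = 0.00574). Against B6-D2 congenic mice 1 of 16 was called, Il7r, where 1.17% of genes were called higher.

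**Figure D4:**
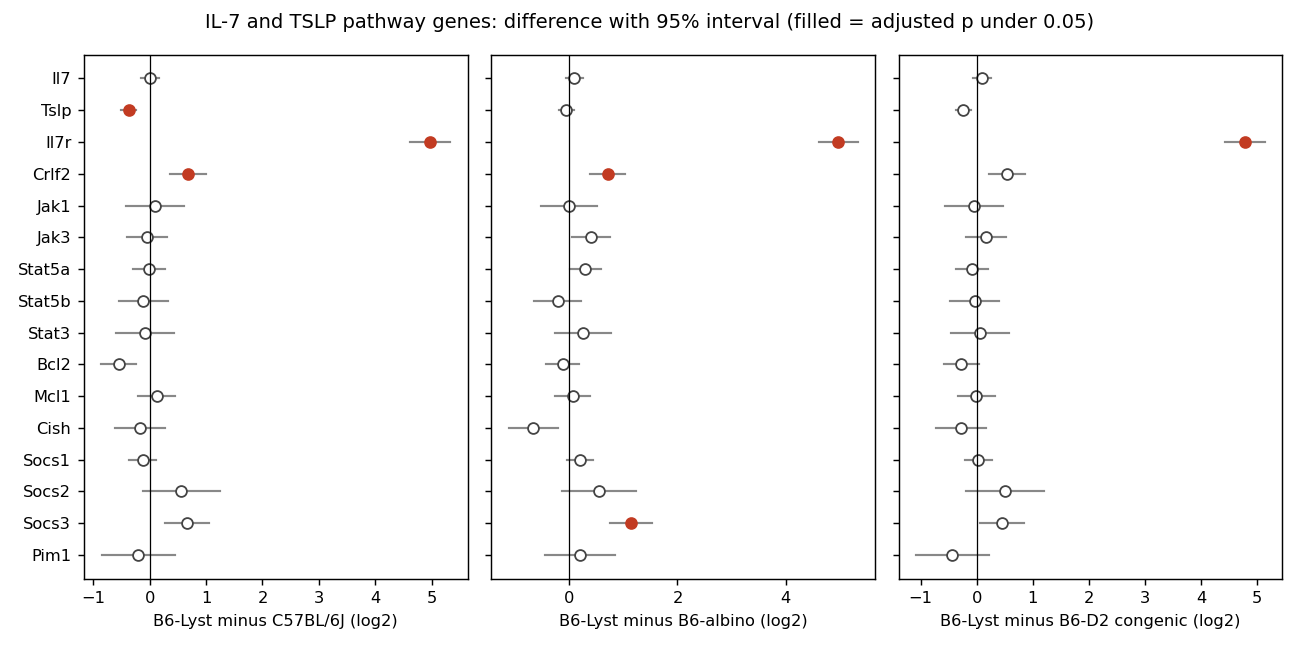
Differences between B6-Lyst and each other strain (horizontal axes, log2) for the 16 genes of the interleukin-7 and Tslp pathway; circles are the estimates, filled where called, and lines the 95% intervals. Il7r stands near 5 in all 3 panels, and the estimates of the other genes lie within about 1.2 of zero.

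No other gene of the common gamma chain family was called beside Il7r. Of 13 genes of that cytokine family, 1 was called higher, Il7r itself, in each of the 3 comparisons with B6-Lyst. Over all genes 1.44% were called higher against C57BL/6J, 1.61% against B6-albino and 1.17% against B6-D2 congenic mice. Il2ra (0.07, adjusted p = 0.822), Il2rb (0.10, adjusted p = 0.728), Il4ra (0.24, adjusted p = 0.426) and Il21r (-0.11, adjusted p = 0.738) were not called against C57BL/6J. Among 6 ligands and partners of CD4, which include the MHC class II genes and Il16, limma called 0, with 0 at an unadjusted p below 0.05. Their differences ran from -0.08 to 0.37.

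Of 14 transcription factors known to act on Il7r or Cd4 in lymphocytes or myeloid cells, 1 was called higher and 0 lower against C57BL/6J. Over all genes 1.44% were called higher and 0.517% lower. Ikzf1, a zinc finger factor of blood cells, read 6.73, 6.73 and 7.11 in C57BL/6J and 7.85, 7.89 and 7.85 in B6-Lyst, a rise of 1.01 (SE 0.15, adjusted p = 0.00487). Its second probe set, 1421303_at, differed by 0.32 (adjusted p = 0.172). Spi1, which encodes the myeloid and B cell factor PU.1, was higher by 0.66 but missed the threshold (adjusted p = 0.0518), and just passed it against B6-albino (0.73, adjusted p = 0.0345) and B6-D2 congenic mice (0.73, adjusted p = 0.0483). With 1 array left out, those Spi1 calls held in 5 and in 1 of 12 fits. Without the high Krt12 arrays both were lost (adjusted p = 0.163 and 0.249), as they were with the replicate block (0.0726 and 0.116). The ETS factor Gabpa (-0.29, adjusted p = 0.259) was not called. Foxo1, which drives Il7r in naive T cells, differed by 0.07 (adjusted p = 0.881), while 1 of its other 3 probe sets, 1456529_at, was called lower (-0.42, adjusted p = 0.0275).

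The genes whose profiles over the 12 arrays lay nearest to Il7r were sought among 499 genes called in at least 1 comparison, by the root mean square difference after centring each gene. They were Atp6v0d2 (0.131), Itgb2 (0.285), Fabp4 (0.299), Itgax (0.396) and Glipr1 (0.428). All are B6-Lyst high: they exceeded C57BL/6J by 4.82, 4.32, 5.01, 4.05 and 4.02. For Cd4 the nearest genes were Naip6 (0.0806), Was (0.0834), Pla2g2d (0.0852), Cd200r1 (0.101) and Tlr7 (0.108), which exceeded C57BL/6J by 0.73 to 0.91. The candidates were chosen for differing between these strains, so a shared contrast with B6-Lyst is built into the likeness, and a marker that was not called could not appear.

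**Figure D5:**
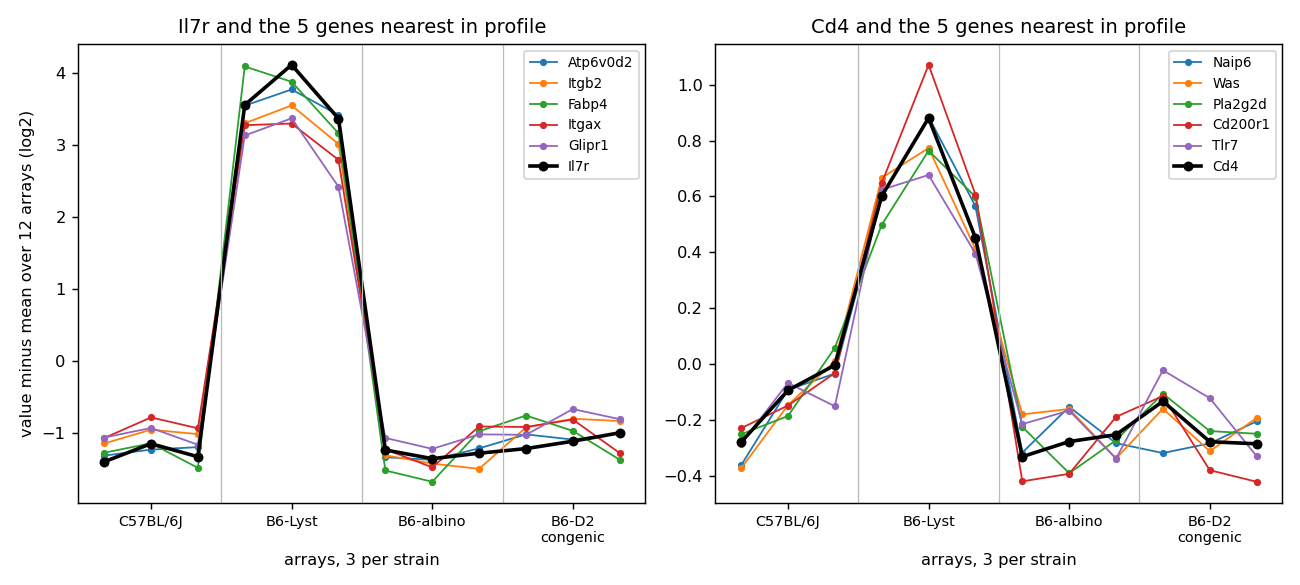
Centred log2 values (vertical axis) over the 12 arrays, 3 per strain (horizontal axis), of Il7r and its 5 nearest genes (left) and Cd4 and its 5 nearest genes (right). Within each panel the lines rise on the same 3 B6-Lyst arrays, by about 5 log2 units for Il7r and under 1 for Cd4 from the C57BL/6J mean.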

How the data were processed

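Total RNA from pooled irides was labelled with biotin and hybridised to Affymetrix arrays, 3 per strain, per the labels. The values used are log2 values as deposited; how they were summarised and normalised is not given in the sources used. The 64 control probe sets were left out of the tests, no filter was applied, and limma 3.58.1 (R 4.3.3; lmFit and eBayes with an intensity trend, two-sided) fitted 1 mean per strain over all 12 arrays. Probe sets were named through the platform annotation: 34945 had 1 symbol, 932 several and 9160 none, and only the first were named. Promoter matches were searched in RefSeq sequence.

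Genes named were every member; from each list, called genes, at most the 6 largest per direction, and fixed defining markers; and the 5 genes nearest to Il7r and to Cd4. Further uncalled genes of the lists (Jak1, Stat5a, Stat5b, Bcl2, Cish, Il2ra, Il2rb, Il4ra, Il21r, Gabpa, S100a9, Kit, Cd163 and genes at an unadjusted p below 0.05) were picked after their values were seen. The members and lists were chosen with earlier results of these data known. On simulated data for B6-Lyst against C57BL/6J with 45037 probe sets, the fit recovered 82% of changes of size 1 and 96% of size 2 on the log2 scale, with 9 false calls. The 3 arrays per strain limit the precision. Replicate numbers were checked for pairing and do not pair the samples: 6 of 18 same-numbered pairs deviated together at r above 0.1.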

Additional observations from a re-analysis of the deposited data

How the results depend on the processing

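The Il7r rise over C57BL/6J kept its call in every alternative run, at 4.75 to 5.12 when 1 array was left out, 2.19 on its other probe set. Members called in B6-Lyst against C57BL/6J stayed at 3 under both other scalings, without the intensity trend, with the actin gap as covariate, with a replicate block, and in all fits leaving out 1 array; they were 2 with a filter at the 40th percentile, which drops the dim Il7r probe set, and 2 with only the arrays compared or without the high Krt12 arrays, where Cd4 is lost. Cd4 lost its call with only the arrays compared (0.77, adjusted p = 0.0793), without the high Krt12 arrays (0.69, adjusted p = 0.0697) and on its other probe set (0.022, adjusted p = 0.965), the cause of the first pair not being tested; leaving out 1 array gave 0.65 to 0.87 with adjusted p of 0.00905 to 0.0363. Replicate numbers do not pair the samples (r from -0.43 to 0.39, and 2 of 12 arrays matched best with their own number).

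Counts of called probe sets moved more, for causes not tested. Against C57BL/6J, B6-Lyst gave 710, 366 with only the arrays compared, 566 with the replicate block, and 368 to 954 with 1 array left out. B6-albino gave 83, 183 after quantile normalization, 125 without the intensity trend, 2 with only the arrays compared, 2 with the replicate block, 0 without the high Krt12 arrays (limma; 6279 at an unadjusted p below 0.05) and 0 to 159 with 1 array left out. B6-D2 congenic mice gave 18, 11 with the filter, 39 without the trend, 3 with only the arrays compared, 6 with the block, 5 without the high Krt12 arrays and 6 to 27 with 1 array left out. B6-Lyst against B6-albino gave 582, 346 without the high Krt12 arrays, 1136 with the actin gap as covariate and 338 to 699 with 1 array left out. B6-albino against B6-D2 congenic mice gave 27, 12 with only the arrays compared, 11 without the high Krt12 arrays and 14 to 29 with 1 array left out.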

Other observations

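Mast cell genes were the only other cell type list with several calls. In B6-Lyst against C57BL/6J, 3 of 7 mast cell genes were called higher and 0 lower, with a median of 0.57. Over all genes 1.44% were called higher and 0.517% lower. Cpa3, the mast cell carboxypeptidase, read 6.14, 6.36 and 6.52 in C57BL/6J, 8.21, 8.36 and 9.22 in B6-Lyst, 7.26, 7.74 and 6.87 in B6-albino, and 5.48, 5.92 and 5.79 in B6-D2 congenic mice. It rose by 2.26 over C57BL/6J (SE 0.27, adjusted p = 0.000719, limma). The arrays of the other 3 strains did not overlap, but B6-albino and B6-D2 congenic mice were not called against C57BL/6J (0.95, adjusted p = 0.126, and -0.61, adjusted p = 0.331). The chymase Cma1 rose by 1.64 (adjusted p = 0.00224) and the IgE receptor chain Ms4a2 by 0.62 (adjusted p = 0.0209), the latter in 8 of 12 fits that left out 1 array. Kit, the receptor that mast cells need, differed by -0.01 (adjusted p = 0.994).

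Of 8 granulocyte genes, 1 was called higher, S100a8 (1.16, SE 0.09, adjusted p = 8.02e-06), while its partner S100a9 differed by -0.15 (adjusted p = 0.549). Over all genes 1.44% were called higher in that comparison. Of 8 dendritic cell genes limma called 0, with 0 at an unadjusted p below 0.05. Of these 8 genes, 6 had mean values below 5.65 on the log2 scale, so the 0 calls say little about dendritic cells. Flt3, the receptor that marks dendritic cell precursors, differed by 0.02 (adjusted p = 0.97). The 10 iris genes gave 0 calls and 0 at an unadjusted p below 0.05.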
